A study of Mus musculus with 3 samples.

Results

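The Notch receptors, ligands and targets described here are 10 genes, named by symbol among the 32285 genes listed in the deposited matrices. They are the receptors Notch1, Notch3 and Notch4, the ligands Jag1 and Dll4, the nuclear factor Rbpj and the target genes Hey1, Heyl, Hes1 and Nrarp. They were followed in the endothelium and the smooth muscle of vascular tissue from wild-type (WT) mice, by RNA sequencing of single cells. The sample titles name vascular tissues and the protocols name arteries. Transcripts were read at their 3' ends and tagged with unique molecular identifiers (UMIs), which count captured molecules. The 3 groups were sunitinib plus Yoda1, sunitinib, and vehicle, with 1 library each, and all 3 carry a label of 3 weeks. Sunitinib inhibits receptor tyrosine kinases, among them the receptors for VEGF and PDGF, and Yoda1 is an agonist of the mechanically gated cation channel PIEZO1. The sunitinib library is labelled only as treated with a TKI, a tyrosine kinase inhibitor, and the third library only with Yoda1. They were placed by the series design, which lists sunitinib as the inhibitor and Yoda1 only together with it. The sources used here do not say how many mice each library holds, or their age and sex.

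Notch signalling passes between touching cells. A ligand of the Jagged or Delta-like family on one cell binds a Notch receptor on its neighbour, and proteases then cut the receptor so that its intracellular part is freed, enters the nucleus and joins the DNA-binding factor RBPJ to switch on targets such as the HES and HEY repressors. In arteries, NOTCH1 and NOTCH4 are known as receptors of endothelium, DLL4 as a ligand of arterial and sprouting endothelium, and NOTCH3 as the receptor of smooth muscle and pericytes, which respond to JAG1 on the endothelium. VEGF signalling is known to raise Dll4 in endothelial cells, and NRARP is a feedback inhibitor that is itself a Notch target.

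A barcode was kept as a cell if it had 500 UMIs or more from 300 genes or more, with mitochondrial genes giving no more than 15% of them. That left 3130 cells of the sunitinib plus Yoda1 library, 4148 of the sunitinib library and 3947 of the vehicle library. Endothelium was every kept cell with a UMI of at least 3 of Pecam1, Cdh5, Egfl7, Ptprb and Vwf. It numbered 366 cells with sunitinib plus Yoda1, 184 with sunitinib and 151 with vehicle. Smooth muscle was every kept cell with at least 2% of its UMIs from Acta2, Tagln, Myh11 and Cnn1. It numbered 65, 3796 and 3595 cells in the same 3 libraries. Cells that met both rules (0, 22 and 19) were left out of both classes. The endothelial sums held 2406318, 1874881 and 1660054 UMIs, and the smooth muscle sums 992683, 62373969 and 68847955 UMIs, so that 1 UMI was worth 0.416, 0.533 and 0.602 CPM (UMIs scaled to a common total per class) in endothelium and 1.01, 0.0160 and 0.0145 CPM in smooth muscle.

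The sunitinib plus Yoda1 library stood apart from the other 2. Most of its kept cells, 86.2%, belonged to neither class, against 3.52% with sunitinib and 4.61% with vehicle. Its endothelium carried the markers of capillary endothelium (Car4, Gpihbp1, Cd36, Rgcc, Aqp7 and Fabp4), all 6 detected and summing to 17530 CPM, against 37.9 CPM with sunitinib and 148 CPM with vehicle. Car4 and Aqp7 were at 0 in the endothelium of both other libraries, and Gpihbp1 was at 0 with sunitinib. Haemoglobin transcripts summed to 42260 CPM there, against 3.20 and 8.43 CPM with sunitinib and vehicle, and 5 lymphatic markers to 827 CPM, against 22.9 and 15.1 CPM. The 8 arterial markers did not move together. Gja4, Gja5, Bmx and Fbln5 were lower in it, with Gja4 at 29.5 CPM against 289 CPM with sunitinib and 304 CPM with vehicle. Cxcl12 was higher, at 1044 CPM against 110.4 and 107 CPM, and Unc5b stood at 44.9 CPM against 29.9 and 24.1 CPM. Efnb2 stood at 161 CPM against 265 and 225 CPM, and Sox17 at 93.9 CPM against 121 and 105 CPM. The smooth muscle of this library differed as well, with haemoglobin at 7064 CPM against 1.38 and 7.61 CPM. Of 5 pericyte markers there, Ndufa4l2 was higher (46.3 against 0 and 0.0145 CPM), as was Higd1b (5.04 CPM, 5 UMIs). Rgs5 was lower (736 against 1759 and 1851 CPM), and Kcnj8 and Abcc9 were near the sunitinib values. The sunitinib plus Yoda1 library was also made with Cell Ranger 7.1.0, the other 2 with 6.0.0. From version 7 on, that program counts reads in introns by default. The sources used here do not say whether this setting was left on. Vessel bed, program version, library and the addition of Yoda1 cannot be told apart in any comparison of that library with the others.

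With 1 library a group there is no replicate, so no test was made and cells were not used as replicates. Each level is the UMI sum of a class as CPM. Each difference is a log2 ratio of 2 such levels, and the interval given after a value is an exact 95% interval for counting error only, treating UMIs as independent. A gene is called higher or lower here where the levels differ by at least 1.5-fold, the interval excludes 0 and both sums together hold at least 20 UMIs. The share of all measured genes called by the same rule in the same comparison is given as the background.

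The receptors divided between the classes, with Notch1 and Notch4 higher in endothelium and Notch3 higher in smooth muscle in every library. Notch1 (chr2:26457903-26516663, minus strand, GRCm38), the main signalling receptor of endothelium, stood at 205 CPM in endothelium with sunitinib plus Yoda1, 223 with sunitinib and 214 with vehicle. In smooth muscle it stood at 15.1, 4.97 and 7.18 CPM in the same order. The endothelial level was 13.6 times, 44.9 times and 29.8 times that of smooth muscle (log2 ratio 3.76, 3.03 to 4.61; 5.49, 5.27 to 5.70; 4.90, 4.70 to 5.10). Endothelial Notch1 was thus nearly level across the 3 libraries, and the size of the class difference moved with its smooth muscle values.

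Median depths were 4668.5, 7149 and 8139 UMIs a cell in endothelium and 14074, 16254 and 16875 in smooth muscle. A Notch1 UMI was found in 57.7% of endothelial cells with sunitinib plus Yoda1, 72.3% with sunitinib and 77.5% with vehicle. With every cell thinned to 2000 UMIs those shares were 35.7%, 35.8% and 41.0% of 314, 165 and 139 cells. Unthinned smooth muscle cells had one in 16.9%, 7.43% and 11.5%. Thinned smooth muscle cells had a Notch1 UMI in 0 of 62 cells, which allows up to 4.84%, in 0.829% and in 1.32%. Free RNA can give such low shares in cells that do not express a gene. From the endothelial marker genes, RNA of endothelium was estimated at 0.829%, 0.284% and 0.348% of smooth muscle RNA. That would give 1.70, 0.634 and 0.745 CPM of Notch1 there. The same genes set the class rule, which left out 22 cells with sunitinib and 19 with vehicle, so these shares are not upper limits. With sunitinib, Pecam1 alone gave 1363 of the 1519 marker UMIs in smooth muscle. The part of free RNA in the Notch1 levels was not tested.

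Notch4 (chr17:34564268-34588503, plus strand), a receptor known mainly from endothelium, stood at 78.1, 58.1 and 42.8 CPM in endothelium with sunitinib plus Yoda1, sunitinib and vehicle, and at 3.02, 0.689 and 0.668 CPM in smooth muscle. Its log2 ratios of endothelium over smooth muscle were 4.69 (3.12 to 6.98), 6.40 (5.88 to 6.94) and 6.0 (5.45 to 6.57). The smooth muscle value with sunitinib plus Yoda1 rests on 3 UMIs.

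Notch3 (chr17:32120820-32166852, minus strand), the receptor whose mutations cause the human small-vessel disease CADASIL, ran the other way. It stood at 18.3, 0.533 and 1.205 CPM in endothelium, which are 44, 1 and 2 UMIs, and at 158, 16.5 and 16.5 CPM in smooth muscle. Its log2 ratios were -3.11 (-3.63 to -2.62), -4.95 (-10.3 to -2.47) and -3.78 (-6.82 to -1.92). The 44 endothelial UMIs with sunitinib plus Yoda1 came from 8 of 366 cells, and 7 cells with a UMI of at least 3 of the pericyte markers Rgs5, Kcnj8, Abcc9, Higd1b and Ndufa4l2 held 30 of them. Without those 7 cells the endothelial level was 6.15 CPM. With sunitinib and vehicle, smooth muscle RNA in endothelial cells was estimated at 5.54% and 5.07% from the contractile genes. That would give 0.914 and 0.837 CPM of Notch3, beside the 0.533 and 1.205 CPM measured from 1 and 2 UMIs. The contractile genes also set the class rule, so these shares are not upper limits. The part of free RNA in these levels was not tested.

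**Figure D1:**
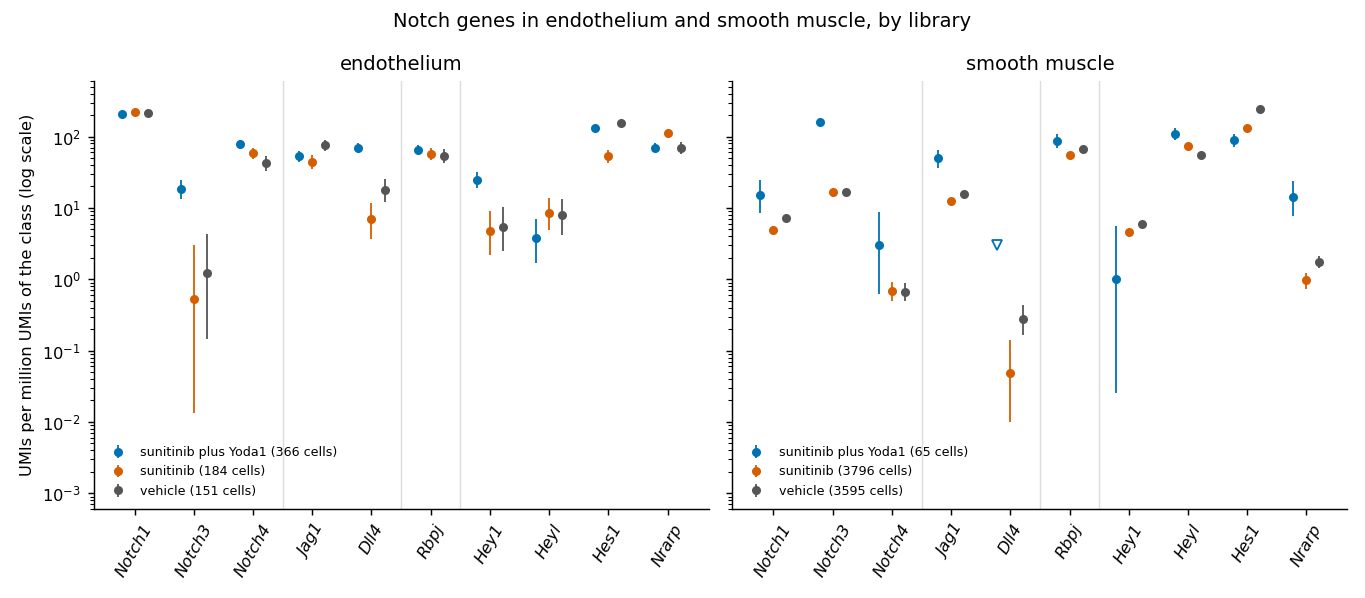
Levels of the 10 genes in CPM of the class (log axis) in endothelium (left) and smooth muscle (right), with blue for sunitinib plus Yoda1, orange for sunitinib and grey for vehicle. Points are 1 library each, bars are exact 95% Poisson intervals, and the open triangle is the limit of 3 counts for Dll4, which had 0 UMIs. Endothelial Notch1 lies between 205 and 223 in all 3 libraries, while smooth muscle Notch3 is at 158 with sunitinib plus Yoda1 and at 16.5 in both other libraries.

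Promoters of 7 of the 10 genes were matched in RefSeq's table for GRCm38.p6, and Rbpj has 2 starts there. The 250 bases before each start were searched on both strands for the RBPJ core TGGGAA, the E-box CACGTG that HES and HEY proteins bind among others, the ETS-type motif AGGAAG known from endothelial genes, the TATA-type motif TATAAA and the CArG box of smooth muscle genes. These motifs are in 21.6%, 6.02%, 29.5%, 12.4% and 1.47% of all 32851 promoters of that table. The windows of Notch1, Notch3, Jag1 and Dll4 held none of them. The 4 windows printed here are those of the 2 receptors with opposite class patterns and of the 2 other genes with a match, and capitals mark the matches (AGGAAG or its complement in Notch4, TGGGAA or its complement in Rbpj, CACGTG in Nrarp).
Notch3 promoter, chr17:32166891-32167140, minus strand: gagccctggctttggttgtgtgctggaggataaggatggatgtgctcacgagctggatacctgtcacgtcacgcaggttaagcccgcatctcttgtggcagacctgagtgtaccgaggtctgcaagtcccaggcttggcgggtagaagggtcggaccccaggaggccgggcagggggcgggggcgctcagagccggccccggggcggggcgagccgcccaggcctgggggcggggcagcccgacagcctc
Notch4 promoter, chr17:34564045-34564294, plus strand: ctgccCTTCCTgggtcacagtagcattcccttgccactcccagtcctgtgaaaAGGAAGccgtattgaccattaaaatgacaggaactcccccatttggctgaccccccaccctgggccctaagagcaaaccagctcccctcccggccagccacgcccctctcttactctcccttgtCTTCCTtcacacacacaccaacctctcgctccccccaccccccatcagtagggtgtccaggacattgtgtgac
Rbpj promoter, chr5:53590096-53590345, plus strand: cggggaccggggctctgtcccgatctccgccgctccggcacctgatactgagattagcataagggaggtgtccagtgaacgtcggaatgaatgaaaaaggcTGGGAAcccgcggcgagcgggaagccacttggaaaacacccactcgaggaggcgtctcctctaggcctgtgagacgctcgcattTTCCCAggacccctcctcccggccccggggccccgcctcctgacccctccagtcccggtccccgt
Nrarp promoter, chr2:25180508-25180757, plus strand: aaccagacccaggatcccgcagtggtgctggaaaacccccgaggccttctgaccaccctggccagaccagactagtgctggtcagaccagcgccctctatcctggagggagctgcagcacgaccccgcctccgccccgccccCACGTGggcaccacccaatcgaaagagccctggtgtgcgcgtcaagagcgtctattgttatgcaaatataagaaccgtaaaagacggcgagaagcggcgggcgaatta
Notch4, higher in endothelium in every library, held the ETS-type motif 3 times, at 245, 197 and 73 bases before the start. The Rbpj window held the RBPJ core at 149 and 65 bases before its first start, and Nrarp held the E-box once, at 108 bases. A match of letters is a description and not a binding site.

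Both ligands were higher in endothelium in the vehicle library, and Dll4 stood near 0 in smooth muscle throughout. Dll4 (chr2:119325784-119335962, plus strand) stood at 70.2 CPM in endothelium with sunitinib plus Yoda1, 6.93 with sunitinib and 18.1 with vehicle, from 169, 13 and 30 UMIs. Smooth muscle held 0, 3 and 19 Dll4 UMIs in the same order, which are 0 (at most 3.02 at the limit of 3 counts), 0.0481 and 0.276 CPM. With sunitinib plus Yoda1 the endothelial level was therefore at least 23.2-fold higher, counting 3 UMIs for the 0. With vehicle the log2 ratio was 6.03 (5.16 to 6.94). With sunitinib the 2 sums hold 16 UMIs, too few for a call.

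Jag1 (chr2:137081456-137116644, minus strand), the ligand through which endothelium is known to act on smooth muscle, was not restricted to one class. It stood at 53.2, 44.3 and 75.3 CPM in endothelium with sunitinib plus Yoda1, sunitinib and vehicle, and at 49.4, 12.7 and 15.5 CPM in smooth muscle. It was higher in endothelium with sunitinib (1.80, 1.46 to 2.13) and vehicle (2.28, 2.0 to 2.55). With sunitinib plus Yoda1 the ratio was 0.11 (-0.38 to 0.61), from 49 smooth muscle UMIs in 25 of 65 cells.

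Rbpj (chr5:53466152-53657362, plus strand), the DNA-binding partner of every Notch receptor, was not called between the classes in any library. It stood at 65.2, 57.1 and 53.6 CPM in endothelium, and at 86.6, 54.6 and 67.3 CPM in smooth muscle. The log2 ratios were -0.41 (-0.80 to -0.01), 0.06 (-0.23 to 0.34) and -0.33 (-0.65 to -0.02). Of its 157 endothelial UMIs with sunitinib plus Yoda1, 23 lay in 1 cell.

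The targets split by gene. Nrarp (chr2:25180758-25183339, plus strand), which has no introns in the annotation, was higher in endothelium in all 3 libraries, at 70.2, 110.4 and 69.9 CPM there and 14.1, 0.962 and 1.76 CPM in smooth muscle. Its log2 ratios were 2.32 (1.53 to 3.22), 6.84 (6.42 to 7.28) and 5.31 (4.93 to 5.69). The first rests on 14 smooth muscle UMIs, 10 of them in the 14 cells with a posterior Hox transcript. With cells thinned to 2000 UMIs it was 0.63 and no longer called.

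Heyl (chr4:123233556-123249875, plus strand), a HEY family repressor known from smooth muscle and pericytes, was lower in endothelium in all 3 libraries. It stood at 3.74, 8.53 and 7.83 CPM in endothelium and 109, 74.5 and 55.9 CPM in smooth muscle, and its log2 ratios were -4.86 (-6.03 to -3.88), -3.13 (-3.93 to -2.43) and -2.83 (-3.75 to -2.06). Estimated in the same way from the contractile genes, free smooth muscle RNA would give 0.519, 4.13 and 2.83 CPM of Heyl in endothelium. Its part in the endothelial values was not tested.

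Hes1 (chr16:30064384-30067796, plus strand), a repressor induced by Notch and by other signals, was detected in both classes. It stood at 130.5, 52.8 and 154 CPM in endothelium and 89.7, 133 and 241 CPM in smooth muscle. It was lower in endothelium with sunitinib (-1.33, -1.63 to -1.05) and with vehicle (-0.65, -0.83 to -0.47), and the ratio with sunitinib plus Yoda1 was 0.54 (0.20 to 0.90), just under the fold of a call. The vehicle call ended when cells that met both rules were added to endothelium (-0.52), at a contractile share of at least 5% (-0.30) and in thinned cells (-0.46). In the sunitinib plus Yoda1 smooth muscle, 27 of 89 Hes1 UMIs lay in 1 cell.

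Hey1 (chr3:8663359-8667256, minus strand), a HEY repressor of arterial endothelium, was low in these libraries. It stood at 24.9, 4.80 and 5.42 CPM in endothelium and 1.01, 4.57 and 5.96 CPM in smooth muscle. The ratio was 4.63 (2.10 to 9.96) with sunitinib plus Yoda1, against 1 smooth muscle UMI, and it was close to 0 with sunitinib (0.07, -1.07 to 1.02) and vehicle (-0.14, -1.27 to 0.80). In thinned cells the first ratio became a bound of -0.22, since no smooth muscle cell kept a Hey1 UMI.

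In sum over the 10 genes, endothelium against smooth muscle gave 5 higher and 2 lower of 10 with sunitinib plus Yoda1, where 46.9% of 10549 measured genes were called in either direction. It gave 4 higher and 3 lower of 9 measured with sunitinib, where 41.0% of 13223 genes were called. With vehicle it gave 5 higher and 3 lower of 10, where 39.8% of 13218 genes were called. The members' medians were 1.43, 0.07 and 1.07, beside 0.25, 0.20 and 0.16 over all measured genes. The classes thus differ in a large part of all genes, and the genes called in the same direction in all 3 libraries were Notch1, Notch4 and Nrarp (higher) and Notch3 and Heyl (lower).

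**Figure D2:**
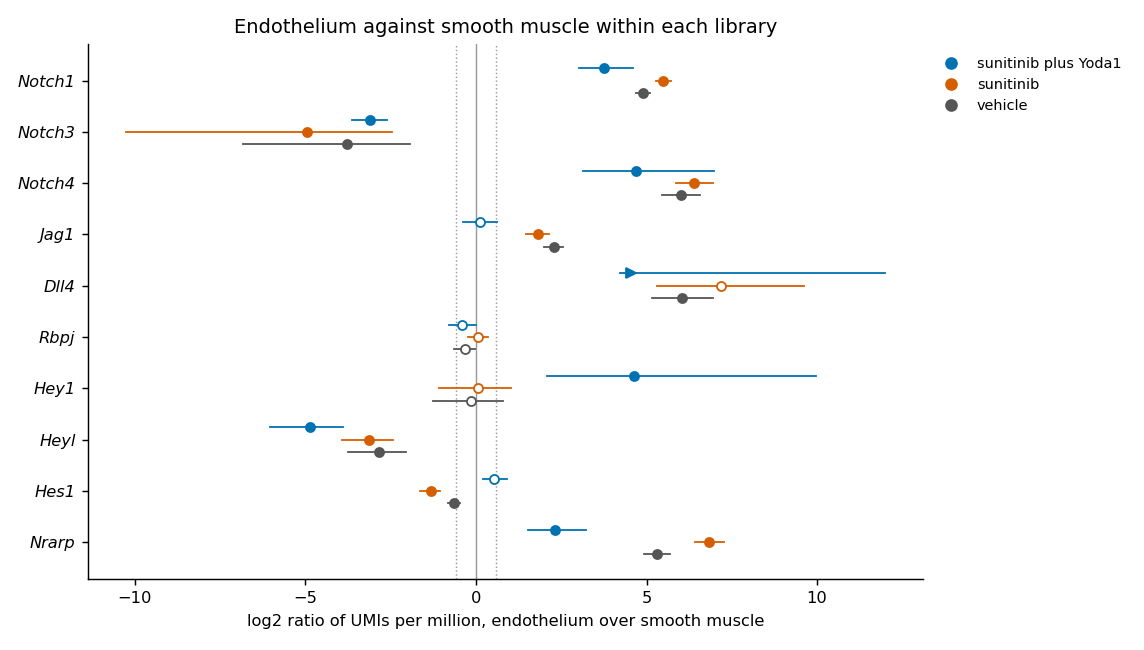
Log2 ratio of the level in endothelium over that in smooth muscle for the 10 genes, in each library (blue sunitinib plus Yoda1, orange sunitinib, grey vehicle). Bars are exact 95% counting intervals, filled points are called, dotted lines mark 1.5-fold, and the triangle for Dll4 is a lower bound whose bar is drawn to the edge of the axis. Notch1, Notch4 and Nrarp lie to the right and Notch3 and Heyl to the left in all 3 libraries, while Hey1 lies near 0 except with sunitinib plus Yoda1.

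Of 63 other genes of the pathway, in 8 lists by role, 52, 51 and 51 were measured with sunitinib plus Yoda1, sunitinib and vehicle, and 19, 20 and 19 of them were higher in endothelium while 4, 2 and 2 were lower. Their medians were 0.37, 0.51 and 0.40. Of all measured genes, 29.6%, 24.6% and 22.4% were higher and 17.3%, 16.3% and 17.4% lower. Receptor processing genes, which encode the proteases that free the intracellular part, had 6, 7 and 6 of 9 higher and none lower, led by the sheddase gene Adam10 with sunitinib plus Yoda1 (2.45, 1.94 to 2.99) and by Aph1b, of the gamma-secretase complex, with sunitinib (3.80) and vehicle (3.55). The Fringe glycosyltransferase Mfng, which alters which ligands a receptor binds, stood at 37.4, 62.4 and 56.6 CPM in endothelium, and at 0, 0.0160 and 0.0145 CPM in smooth muscle, from 0, 1 and 1 UMI. None of 7 coactivators was called with sunitinib plus Yoda1, and 1 each with sunitinib and vehicle.

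The remaining receptor and target genes of each family did not all follow their relatives. Notch2 was lower in endothelium in all 3 libraries (-1.44, -1.16 and -0.70), at 24.1, 13.3 and 17.5 CPM against 65.5, 29.8 and 28.5 CPM in smooth muscle. The ligand gene Dll1 was higher in endothelium in all 3 (5.20, 5.96 and 5.89), the first against 1 smooth muscle UMI. Hey2, a HEY repressor known from arterial endothelium, turned direction between libraries. It stood at 12.05 CPM in endothelium with sunitinib plus Yoda1 against 60.4 in smooth muscle (-2.33, -3.02 to -1.66), but at 109.9 against 27.2 CPM with sunitinib (2.01, 1.80 to 2.22) and 128 against 29.95 CPM with vehicle (2.10, 1.89 to 2.30).

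Sunitinib was next set against vehicle, which asks what the kinase inhibitor alone was accompanied by in these 2 classes. In endothelium Hes1, Dll4 and Jag1 were lower with sunitinib and Nrarp was higher, while Notch1 and Rbpj lay within 0.1 of 0. Of 8 measured members, 4 were called, 1 higher and 3 lower, where 8.56% of 9226 measured genes were called in either direction, 5.35% higher and 3.21% lower. Their median was 0.08, beside 0.11 over all measured genes. Notch3 and Hey1 had too few UMIs to be measured.

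Hes1 stood at 52.8 CPM with sunitinib (99 UMIs in 45 of 184 cells) and 154 CPM with vehicle (255 UMIs in 68 of 151 cells), 2.91-fold lower (log2 ratio -1.54, -1.89 to -1.20). In thinned cells, 7.27% with sunitinib and 21.6% with vehicle had a Hes1 UMI. The vehicle cell with most held 26 of the 255 UMIs. The call held under each of the 15 alternatives, between -1.93 and -1.48. Immediate early genes, a list of 12 such as Fos and Egr1 that respond to stress and to tissue dissociation and that was added with the data seen, summed to 14200 CPM with sunitinib and 16540 CPM with vehicle in endothelium. Their part in the result was not tested.

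Both ligand genes were lower. Dll4 stood at 6.93 CPM (13 UMIs in 11 cells) with sunitinib and 18.1 CPM (30 UMIs in 21 cells) with vehicle (-1.38, -2.44 to -0.40). Averaging CPM cell by cell, the Dll4 ratio was -0.28 and not called, and it was not called in thinned cells (-1.57) either. Jag1 stood at 44.3 and 75.3 CPM (-0.77, -1.18 to -0.35), and at -0.32 in thinned cells, where it was not called. The other measured ligands of the pathway list, Dll1 and Jag2, were lower as well. Dll1 stood at 29.9 CPM with sunitinib and 71.7 CPM with vehicle (-1.26, -1.75 to -0.79), and Jag2 at 3.73 and 10.2 CPM, from 7 and 17 UMIs (-1.46, -2.97 to -0.11). All 4 ligand genes measured were thus called lower with sunitinib, where 3.21% of all measured genes were, but the calls of Dll4 and Jag1 ended in thinned cells. No values in thinned cells are given here for Dll1 and Jag2, and Jag2 rests on 7 and 17 UMIs.

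Nrarp went the other way, with 110.4 CPM with sunitinib and 69.9 CPM with vehicle (0.66, 0.33 to 1.0), from 207 and 116 UMIs. This call did not hold with TMM factors (0.57), median-of-ratios factors (0.51) or thinned cells (0.39). Notch4 stood at 58.1 and 42.8 CPM (0.44, -0.00 to 0.90) and was not called. Hey2 stood at 109.9 and 128 CPM and was not called. Of 49 other pathway genes measured in endothelium, 2 were higher, Hes6 (1.17, 0.27 to 2.13) and Pofut1 (0.59, 0.01 to 1.19), and 2 lower, Jag2 and Dll1, which is near the 5.35% higher and 3.21% lower of all measured genes. Of the endothelial cells, 90.8% with sunitinib and 94.0% with vehicle had a UMI of at least 2 of 8 arterial markers. Within these cells the ratios were -1.53 for Hes1, -1.49 for Dll4, -0.74 for Jag1 and 0.66 for Nrarp.

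In smooth muscle Hes1 was also lower with sunitinib, and Notch3 was level. Both classes come from the same libraries, so the smooth muscle values are not an independent repeat of those in endothelium. Of 10 members, 3 were called, all lower, where 8.94% of 13885 measured genes were called, 5.44% higher and 3.50% lower. The median over the members was -0.34, beside 0.09 over all measured genes. Hes1 stood at 133 CPM with sunitinib (8292 UMIs) and 241 CPM with vehicle (16598 UMIs), with a log2 ratio of -0.86 (-0.90 to -0.82). A Hes1 UMI was found in 20.2% of thinned cells with sunitinib and 32.7% with vehicle. Immediate early genes summed to 15340 CPM with sunitinib and 20840 CPM with vehicle in smooth muscle, and their part in the result was not tested.

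Posterior Hox genes, which mark caudal body positions, were detected in part of the smooth muscle. A UMI of any of 16 such genes was found in 14.8% of smooth muscle cells with sunitinib and 16.8% with vehicle. Hes1 was lower with sunitinib in cells with such a UMI (-0.58, -0.67 to -0.50) and in cells without (-0.93, -0.97 to -0.88), and it was at -0.85 in cells with an Rgs5 UMI and at -0.88 in cells without. These splits were chosen with the data seen.

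Notch3 stood at 16.5 CPM in both libraries (-0.00, -0.12 to 0.12), and Notch2 had a ratio of 0.06. Rbpj (-0.30), Jag1 (-0.29), Hey1 (-0.38) and Notch1 (-0.53) were lower by less than 1.5-fold. Heyl stood at 74.5 CPM with sunitinib and 55.9 CPM with vehicle (0.42, 0.35 to 0.48), above 0 but under the fold of a call. So in smooth muscle the 2 best-counted targets, Hes1 and Heyl, lay on opposite sides of 0.

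The other 2 calls rest on few molecules, and neither was made in thinned cells. Nrarp stood at 0.962 CPM (60 UMIs) with sunitinib and 1.76 CPM (121 UMIs) with vehicle (-0.87, -1.34 to -0.41). In cells without an Rgs5 UMI its ratio was 0.02 (-1.18 to 1.23). Dll4 had 3 UMIs with sunitinib and 19 with vehicle in smooth muscle (-2.52, -4.92 to -0.76), in 3 of 3796 and 14 of 3595 cells. The marker-gene estimate of free endothelial RNA, which is not an upper limit, would give 0.0197 and 0.0630 CPM. The measured levels were 0.0481 and 0.276 CPM, and the part of free RNA in them was not tested. With at most 5% mitochondrial UMIs a cell, the Dll4 ratio turned to 0.85. Of 51 other pathway genes measured in smooth muscle, the ubiquitin ligase gene Dtx1 was higher (0.96, 0.56 to 1.37), and Dll1 (-1.33, -1.98 to -0.71) and the Fringe gene Lfng (-1.44, -2.64 to -0.37) were lower, from 30 and 83 UMIs of Dll1 and 10 and 30 of Lfng. Over all measured genes 5.44% were higher and 3.50% lower.

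**Figure D3:**
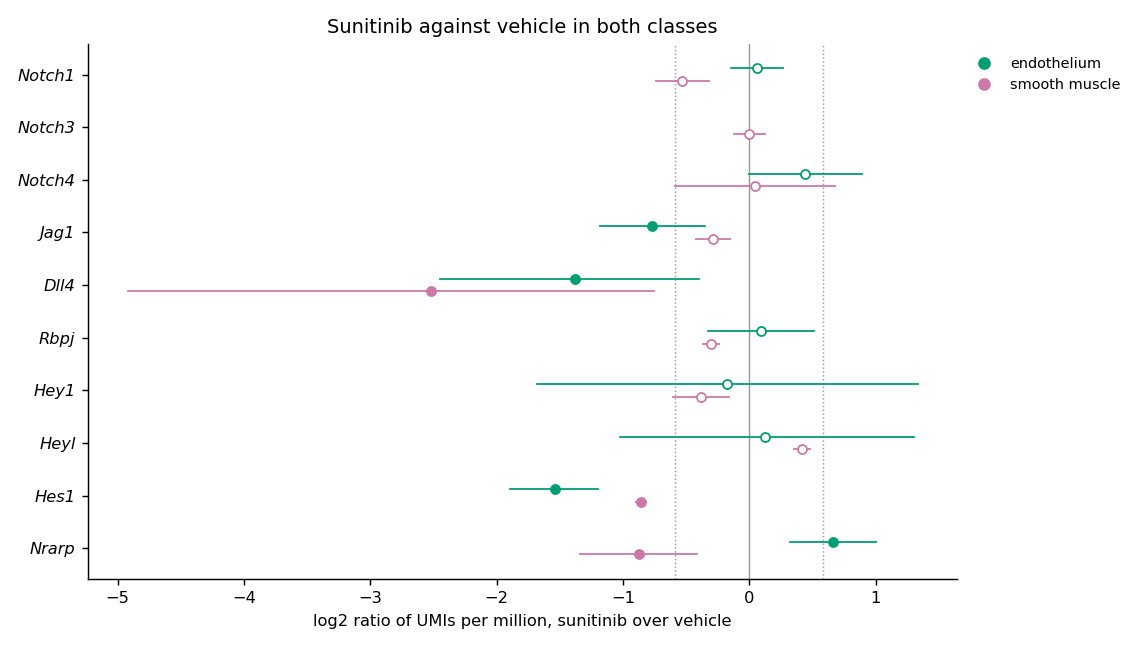
Log2 ratio of the level with sunitinib over that with vehicle for the 10 genes in endothelium (green) and smooth muscle (pink). Bars are exact 95% counting intervals, filled points are called, dotted lines mark 1.5-fold, and Notch3 in endothelium has too few UMIs for a ratio. Hes1 lies left of 0 in both classes, Jag1 and Dll4 are called lower in endothelium, and Nrarp lies right of 0 in endothelium and left of it in smooth muscle.

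Sunitinib plus Yoda1 was last set against sunitinib alone, which asks what the PIEZO1 agonist was accompanied by on top of the inhibitor. In endothelium Dll4, Hey1, Hes1 and Notch3 were higher with both compounds and Nrarp was lower, beside differences in a large part of all genes. Of 10 members, 5 were called, 4 higher and 1 lower, where 50.4% of 10572 measured genes were called, 32.8% higher and 17.6% lower. The members' median was 0.35, beside 0.22 over all measured genes. Both this comparison and the one with vehicle use the sunitinib library, so its value for a gene enters both, as the upper value in one and the lower in the other.

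Dll4 stood at 70.2 CPM with sunitinib plus Yoda1 (169 UMIs in 89 of 366 cells) and 6.93 CPM with sunitinib (13 UMIs in 11 of 184 cells), 10.1-fold higher (log2 ratio 3.34, 2.53 to 4.28). Hey1 stood at 24.9 and 4.80 CPM (2.38, 1.36 to 3.57), from 60 and 9 UMIs, and was not called in thinned cells (1.19). Hes1 stood at 130.5 and 52.8 CPM (1.31, 0.97 to 1.65). Immediate early genes summed to 4290 CPM with sunitinib plus Yoda1 and 14200 CPM with sunitinib in endothelium, and to 6053 and 15340 CPM in smooth muscle, and their part in these results was not tested. Nrarp stood at 70.2 and 110.4 CPM (-0.65, -0.95 to -0.35), and 6 of 15 alternatives ended that call. The Notch3 call (5.10, 2.55 to 10.4) set 44 UMIs against 1, and it ended when the cells with pericyte markers (1.90) or the 5% of cells with most UMIs (0.89) were left out. Notch1 (-0.12, -0.31 to 0.07), Notch4 (0.43, 0.08 to 0.78), Jag1 (0.26, -0.14 to 0.68) and Rbpj (0.19, -0.17 to 0.56) were not called. Among other pathway genes Jag2 stood at 93.5 and 3.73 CPM (4.65, 3.58 to 5.98), and Hey2 at 12.05 and 109.9 CPM (-3.19, -3.80 to -2.62).

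Several of these genes also differed within the sunitinib plus Yoda1 endothelium between cells of different vessel markers. Of the 366 cells, 313 had a UMI of at least 2 capillary markers and 53 did not, while with sunitinib 1 of 184 cells and with vehicle 3 of 151 did. Hes1 stood at 154.5 CPM in the capillary-marked cells and 35.1 CPM in the 53 others, against 52.3 CPM in the 183 sunitinib cells without those markers. Hey1 stood at 30.2 and 4.13 CPM, from 58 and 2 UMIs, against 4.90 CPM in the same sunitinib cells. Of these Hey1 UMIs with sunitinib plus Yoda1, 13 lay in cells with at least 3 pericyte markers and 47 in the rest. Hey2 ran opposite, at 2.08 and 51.7 CPM, from 4 and 25 UMIs, against 111 CPM. Jag1 stood at 39.5 and 107.5 CPM, against 45.2 CPM. In cells without capillary markers, the ratio of sunitinib plus Yoda1 over sunitinib was thus -0.57 (-1.41 to 0.18) for Hes1, whereas Dll4 was higher, at 49.6 CPM against 7.08 CPM (2.81, 1.78 to 3.91), from 24 and 13 UMIs. In cells with at least 2 arterial markers the ratios were 3.63 (2.78 to 4.61) for Dll4 and 1.37 (1.03 to 1.72) for Hes1. Of those 236 cells with sunitinib plus Yoda1, however, 198 also had at least 2 capillary markers, against 1 of 167 with sunitinib. The 38 that did not have 2 capillary markers stood at 61.7 CPM of Dll4 (22 UMIs) and 44.9 CPM of Hes1 (16 UMIs). The 166 such sunitinib cells stood at 6.62 and 52.9 CPM. Cells with lymphatic, venous or pericyte markers were not left out of these sets. Across the capillary split Notch1 was level, at 207.5 and 196 CPM against 225.5 CPM. By arterial markers it was not level within the sunitinib plus Yoda1 endothelium. Cells with at least 2 of them stood higher than cells without (0.69, 0.355 to 1.04).

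By another split of the 366 cells, 21 had a UMI of at least 2 of 5 lymphatic markers. They held Notch1 at 235 CPM and Dll4 at 101 CPM, against 201.5 and 66.2 CPM in the rest. Both intervals included 0 (log2 ratio 0.22, -0.18 to 0.60, and 0.61, -0.03 to 1.20). Notch4 (21.7 against 85.5 CPM), Nrarp (25.3 against 76.1 CPM) and Hes1 (-0.86, -1.57 to -0.22) were lower in the lymphatic-marked cells. Rbpj was higher in them (0.74, 0.09 to 1.34). These splits, too, were chosen with the data seen, and cells of 1 library are not replicates.

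**Figure D4:**
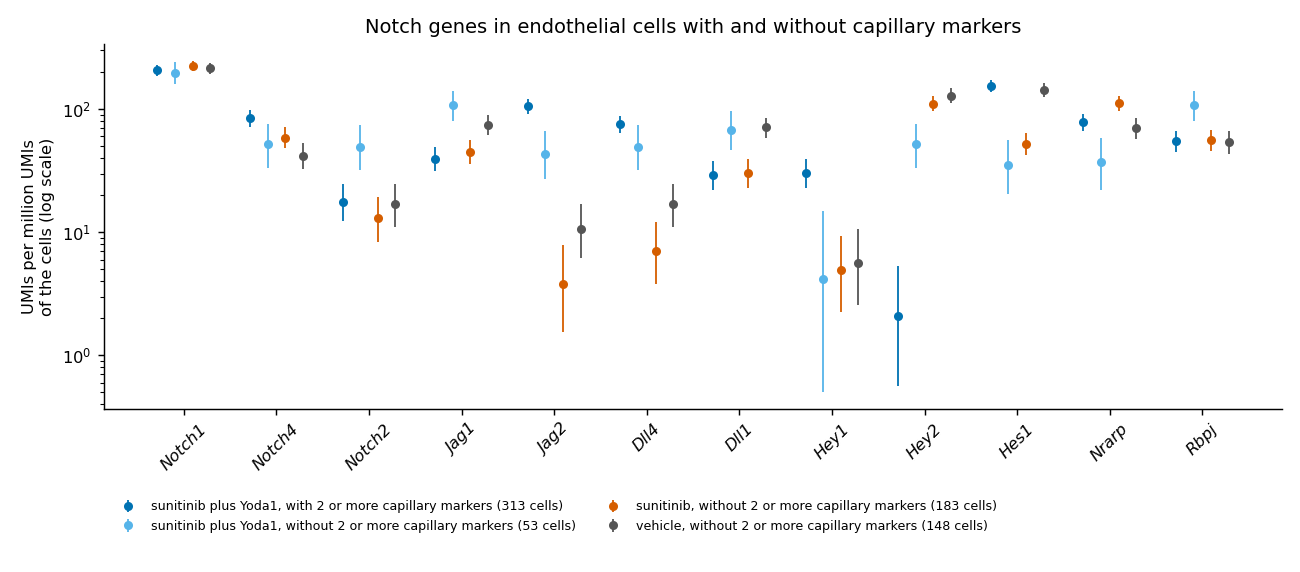
Levels of 12 Notch genes (CPM of the cells summed, log axis) in endothelial cells with sunitinib plus Yoda1 that carry at least 2 capillary markers (dark blue, 313 cells) or do not (light blue, 53), and in cells without them with sunitinib (orange, 183) and vehicle (grey, 148). Points are sums over the cells of 1 library and bars exact 95% Poisson intervals. Hes1 is at 154.5 in capillary-marked cells and 35.1 in the 53 others, Hey2 is at 2.08 and 51.7 in the same 2 sets, and Notch1 lies between 196 and 225.5 in all 4.

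In smooth muscle the comparison rests on 65 cells with sunitinib plus Yoda1 against 3796 with sunitinib. Of 9 measured members, 5 were called, all higher, where 26.7% of 13053 measured genes were called, 21.3% higher and 5.43% lower, and the medians were 1.60 over the members and 0.29 over all measured genes. Notch3 stood at 158 CPM (157 UMIs in 32 of 65 cells) with sunitinib plus Yoda1 and 16.5 CPM with sunitinib (3.26, 3.01 to 3.50). In thinned cells, 17.7% and 3.54% had a Notch3 UMI. The difference was seen in the 14 cells with a posterior Hox UMI (382 against 21.3 CPM) and in the 51 without (103 against 15.6 CPM), and in cells with an Rgs5 UMI (109 against 16.2 CPM) and without (202 against 18.0 CPM). Jag1 stood at 49.4 and 12.7 CPM (1.96, 1.51 to 2.38), Notch1 at 15.1 and 4.97 CPM (1.60, 0.75 to 2.35) and Nrarp at 14.1 and 0.962 CPM (3.87, 2.92 to 4.73), from 14 and 60 UMIs. Rbpj was called at 0.67 (0.34 to 0.98), but not with TMM (0.36) or median-of-ratios factors (0.44). In thinned cells Notch1, Nrarp and Rbpj were not called. Heyl (0.55, 0.26 to 0.82), Hes1 (-0.57, -0.89 to -0.27) and Hey1 (-2.18, 1 UMI against 285) were not called. One cell held 27 of the 89 Hes1 UMIs. It was among the 14 sunitinib plus Yoda1 cells with a posterior Hox UMI, where Hes1 stood at 300.3 against 179 CPM (0.75, 0.35 to 1.12) with that cell and at 184 CPM (0.04, -0.51 to 0.55) without it. In the 51 cells without such a UMI, Hes1 stood at 37.7 against 124 CPM (-1.72, -2.29 to -1.20).

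Ratios of sunitinib plus Yoda1 over sunitinib were higher for genes with longer introns. With the measured genes in 5 equal bins by total intron length, from shortest to longest, the median log2 ratio went from -0.36 over -0.11, 0.19 and 0.51 to 1.29 in endothelium, and from 0.03 over 0.04, 0.15 and 0.37 to 0.95 in smooth muscle. The bins of sunitinib over vehicle lay between 0.10 and 0.13 in endothelium and between 0.05 and 0.11 in smooth muscle. Rbpj was in the top bin, with 178461 intron bases, and its ratios of 0.19 and 0.67 lay under the medians of that bin. Notch1 and Notch3 were in the next to top bin. In endothelium Notch1 (-0.12) lay under the median of 0.51 and Notch3 (5.10) above it. In smooth muscle both Notch3 (3.26) and Notch1 (1.60) lay above the median of 0.37. Hey1, Hes1 and Nrarp were in the shortest and Dll4 and Heyl in the next, where the medians were at or below 0.04. Within the sunitinib plus Yoda1 library, the bin medians of endothelium over smooth muscle rose as well, from -0.08 to 0.50. With sunitinib they lay between 0.15 and 0.23, and with vehicle between 0.13 and 0.19. The part of intron counting in the members' ratios was not tested. The highest coactivator ratios of sunitinib plus Yoda1 over sunitinib belonged to Maml3 (3.92 in endothelium, 4.02 in smooth muscle), and those of Maml2 were 3.51 and 3.79. Of the other pathway genes measured, 19 of 52 were higher and 7 lower in endothelium, where 32.8% and 17.6% of all measured genes were, so that these counts lay near the background. In smooth muscle 19 of 50 were higher and 1 lower, beside 21.3% and 5.43% of all measured genes.

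**Figure D5:**
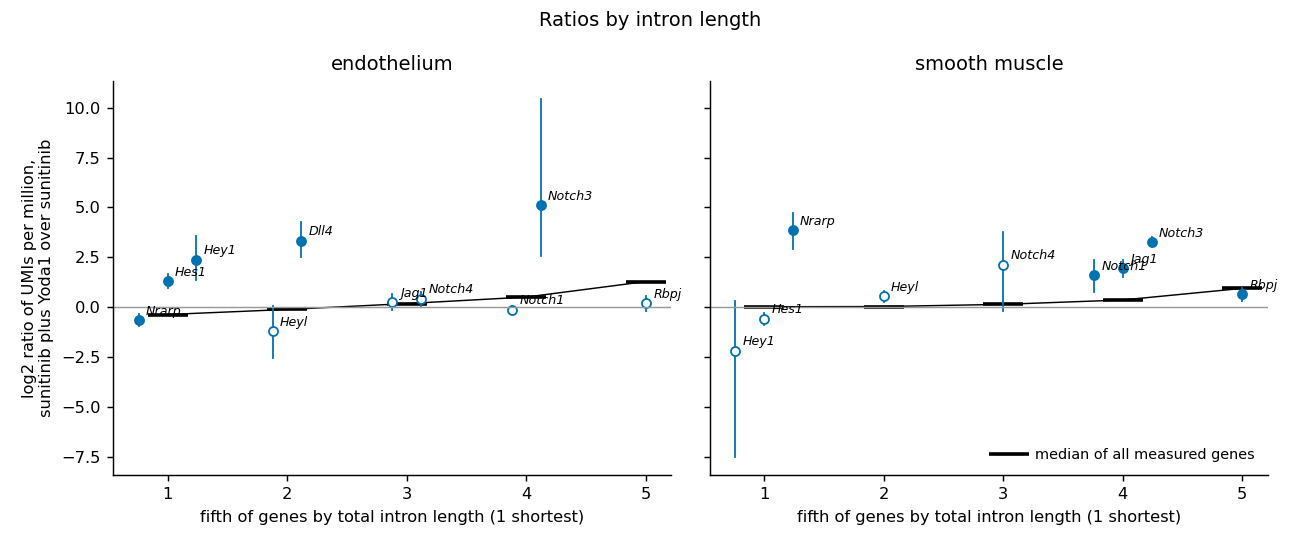
Log2 ratio of the level with sunitinib plus Yoda1 over that with sunitinib for the 10 genes, placed by bin of total intron length (5 equal bins of measured genes, 1 shortest), in endothelium (left) and smooth muscle (right). Black bars are the medians of all measured genes of each bin, bars on points are exact 95% counting intervals and filled points are called. The medians climb to 1.29 and 0.95 in the top bin, while Dll4 in endothelium and Nrarp in smooth muscle lie far above the medians of their own bins.

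Outside both classes, the sunitinib plus Yoda1 library held 2699 kept cells, and the levels are given here for cells with a UMI of at least 2 B cell, T cell, macrophage or fibroblast markers and of at most 1 of each other list. Rbpj stood at 576 CPM in 185 cells with macrophage markers (542 to 611), against 65.2 CPM in endothelium, and at 104 CPM in 216 cells with fibroblast markers. Notch1 stood at 46.6 CPM in 708 cells with T cell markers, where the receptor is known to guide T cell development, and at 6.82 CPM in 1074 cells with B cell markers. Notch3 and Heyl stood at 22.9 and 21.65 CPM in the cells with fibroblast markers, and both were at 0 in those with T cell markers. Dll4 was at 0 in all 4 sets, 0 of 1074, 708, 185 and 216 cells, which allows shares of cells with a Dll4 UMI of up to 0.279%, 0.424%, 1.62% and 1.39%. These limits do not cover cells that express Dll4 and gave no UMI.

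Across the 6 sums, 2 classes in 3 libraries, the genes most like each member were found among 13323 genes with at least 50 UMIs, by the root mean square difference of centred log2(CPM + 10). Notch1 was most like Esam (0.20), which encodes an adhesion molecule of endothelial junctions. Notch3 was most like Slc8a1 (0.14), the sodium-calcium exchanger gene, and Heyl most like Arhgef25 (0.11). Notch4 was most like Lpar6 (0.10) and Dll4 most like Sema7a (0.09). Hes1 had 1 gene within 0.25, P4ha1 (0.23), whereas Rbpj, which varied little, had 3589. The 6 sums share libraries and classes, so that likeness is a description of these samples.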

How the data were processed

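The authors deposited a matrix of UMI counts for each library, with genes against cell barcodes and no normalization, per the file headers. Cells were captured from digested arteries with the 10x Genomics 3' kit, per the labels' protocols, which name no sort. Cell Ranger 6.0.0 made the sunitinib and vehicle matrices and 7.1.0 the sunitinib plus Yoda1 matrix, per the file headers. The build mm10 is named, per the submitters' processing notes. Whether counting used strand is not stated, and 6 of the 10 genes overlap another annotated gene (GENCODE vM21), whose reads could not be told apart without it.

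From the counts, UMIs were summed by class and library and given as CPM. Ratios carry exact conditional binomial intervals, levels exact Poisson intervals and shares exact Clopper-Pearson intervals. A count of 0 was set to 3 UMIs, which makes the ratio a bound, and 2 sums of at most 3 UMIs give no ratio. All genes entered each comparison. No doublet caller was run, and an alternative left out the 5% of cells with most UMIs. Libraries shared 8, 3 and 3 barcodes. Code was tested on simulated counts. The members, marker lists and 8 pathway lists were chosen with earlier results of these data known. The genes named are all 10 members, Notch2, Hey2, Jag2, Dll1, and the highest and lowest gene of a pathway list. Maml2, beyond this rule, was chosen after its values were seen. Python 3.11.15, numpy 2.4.6, scipy 1.17.1, pandas 2.3.3, R 4.3.3, edgeR 4.0.16 (TMM factors only) and DESeq2 1.42.0 (median-of-ratios factors only) were used. The closing section gives the effect of 13 alternatives listed at the outset and 3 added with the data seen.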

Additional observations from a re-analysis of the deposited data

Results flagged for a closer look

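Nrarp stood out because its called differences ran in opposite directions in the 2 classes. With sunitinib against vehicle its log2 ratio was 0.66 in endothelium and -0.87 in smooth muscle. With sunitinib plus Yoda1 against sunitinib it was -0.65 in endothelium and 3.87 in smooth muscle, the last from 14 and 60 UMIs. With 1 library a group, the difference between the classes was not tested. The endothelial ratio of the first comparison was 0.57 with TMM factors, and that of the second was -0.18 in thinned cells, where neither is called. Neither smooth muscle ratio was called in thinned cells either. Of the 14 smooth muscle UMIs with sunitinib plus Yoda1, 10 lay in the 14 cells with a posterior Hox UMI and 4 in the 51 without.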

How the results depend on the processing

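Counts of called genes moved by over 1.5 times in 7 recomputed counts and by less in 101. With cells thinned to 2000 UMIs, endothelium against smooth muscle gave 4 calls with sunitinib plus Yoda1 and 5 with vehicle, sunitinib against vehicle gave 1 in endothelium, and sunitinib plus Yoda1 against sunitinib gave 2 in endothelium and 2 in smooth muscle; fewer UMIs are left by construction. At a fold of at least 2, sunitinib against vehicle gave 2 calls in endothelium and 1 in smooth muscle. The counts stayed within 1.5 times where endothelium needed 2 or 4 of its 5 markers, kept the cells meeting both rules, or lost its pericyte-marked or lymphatic-marked cells. They also did so with at least 5% contractile UMIs, at most 5% mitochondrial UMIs, the 5% of cells with most UMIs left out, CPM averaged over cells, TMM or median-of-ratios factors, free RNA taken off, haemoglobin left out, and no minimum of UMIs. The ratio of Hey1 in endothelium over smooth muscle with sunitinib plus Yoda1 became a lower bound of -0.22 in thinned cells. No smooth muscle cell kept a Hey1 UMI there, so the bound gives no direction. The ratio of Dll4 in smooth muscle with sunitinib against vehicle turned to 0.85 at most 5% mitochondrial UMIs. The cause of that turn was not tested. Of 39 called member ratios, 20 held in all alternatives run for them and 19 were lost in some, 18 of them in thinned cells. Alternatives that left under 20 smooth muscle cells with sunitinib plus Yoda1 (at least 5% contractile UMIs, at most 5% mitochondrial UMIs) give no value for that class. TMM factors moved the median of all genes by over 0.1 in 4 comparisons, most in smooth muscle with sunitinib plus Yoda1 against sunitinib (from 0.29 to -0.01). No paired analysis was possible because each group has 1 library. Depth limits genes of a few UMIs, above all Dll4, Notch4 and Hey1 in the 65 smooth muscle cells with sunitinib plus Yoda1, where 1 UMI is worth 1.01 CPM.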

Other observations

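The 146 cells of the sunitinib library and the 182 of the vehicle library that met neither class rule also held Notch transcripts. Hes1 stood at 144 CPM in them with sunitinib (119.7 to 171) and 208 CPM with vehicle (187 to 230.2). Heyl stood at 50.9 CPM with sunitinib and 43.8 CPM with vehicle, and Notch3 at 12.4 and 29.8 CPM. The median depth was 1058 UMIs with sunitinib and 7587.5 UMIs with vehicle, and Dll4 was at 0 UMIs in both. The cells that met both rules, 22 with sunitinib and 19 with vehicle, had median depths of 21565.5 and 20000 UMIs and carried genes of both classes, with Notch1 at 55.3 and 61.3 CPM and Heyl at 86.0 and 40.1 CPM. Whether they are doublets was not tested.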
